A study of Mus musculus with 10 samples.

Results

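The genes described here are 31 genes of the type I interferon response, found as 31 of the 23510 rows of the gene table. They were chosen by name, with earlier results of these data known. The genes were measured in lymphatic endothelial cells (LEC), the lining of lymphatic vessels, sorted by flow cytometry from MT-ret melanoma of C57BL/6N mice that had been implanted with tumour fragments on the flank. The anti-Ang2 group received an intraperitoneal antibody against angiopoietin-2, a ligand of the endothelial receptor Tie2, and the IgG group received control IgG. All mice were killed 12 h after the injection, and each group held 5 mice with 1 library per mouse, made from 0.5 ng of RNA. Of the 31 members, 30 passed the filter on low counts and were tested, and Oas3 did not.

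Type I interferons bind a receptor made of the chains IFNAR1 and IFNAR2. The kinases on its inner side phosphorylate STAT2, which acts with IRF9 in the factor ISGF3, and ISGF3 binds the interferon-stimulated response element in front of target genes. The products of these genes sense viral nucleic acid, block steps of virus growth, present antigen or dampen the receptor itself, and many are kept at a low level in uninfected cells.

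The promoters of the members carry that element often. It was searched as GAAA, any 2 bases and GAAA again, on both strands, with overlapping matches counted, in RefSeq promoter windows of GRCm38.p6 that span 250 bases before the annotated start and 50 from it. A window was found for 24 members, of which 13 (54.2%) held a match, against 3.99% of 27025 genes. The windows printed here belong to the modifier Isg15, to 3 genes of the IFIT cluster with matches and to Oasl2, the member with the smallest p of the treatment comparison, which holds none. Capitals mark the matches, and all are written along the gene's own strand.
Isg15, chr4:156200769-156201068, minus strand: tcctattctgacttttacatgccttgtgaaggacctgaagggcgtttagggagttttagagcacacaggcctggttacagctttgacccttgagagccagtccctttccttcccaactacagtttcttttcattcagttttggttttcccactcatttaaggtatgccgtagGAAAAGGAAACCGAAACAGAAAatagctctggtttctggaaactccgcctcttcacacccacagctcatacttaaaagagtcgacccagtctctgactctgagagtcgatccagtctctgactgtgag
Ifit1, chr19:34640639-34640938, plus strand: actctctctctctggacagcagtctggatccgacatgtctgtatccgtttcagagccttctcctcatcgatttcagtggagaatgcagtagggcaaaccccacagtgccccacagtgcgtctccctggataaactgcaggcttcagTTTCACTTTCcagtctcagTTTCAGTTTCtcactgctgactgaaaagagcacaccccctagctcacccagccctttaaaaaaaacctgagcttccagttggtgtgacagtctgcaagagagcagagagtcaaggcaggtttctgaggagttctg
Ifit3, chr19:34583279-34583578, plus strand: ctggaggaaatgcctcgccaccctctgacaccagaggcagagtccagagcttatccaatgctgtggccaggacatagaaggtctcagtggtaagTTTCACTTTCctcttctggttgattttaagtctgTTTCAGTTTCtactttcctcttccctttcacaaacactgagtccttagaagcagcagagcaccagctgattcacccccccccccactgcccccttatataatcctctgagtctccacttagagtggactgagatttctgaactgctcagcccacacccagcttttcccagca
Ifit3b, chr19:34607707-34608006, plus strand: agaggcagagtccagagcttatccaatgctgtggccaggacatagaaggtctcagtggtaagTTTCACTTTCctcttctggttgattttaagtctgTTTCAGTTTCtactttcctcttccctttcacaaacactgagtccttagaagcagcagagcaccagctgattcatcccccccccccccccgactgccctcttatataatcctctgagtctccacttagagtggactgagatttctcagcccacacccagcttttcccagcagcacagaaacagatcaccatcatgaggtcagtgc
Oasl2, chr5:114896684-114896983, plus strand: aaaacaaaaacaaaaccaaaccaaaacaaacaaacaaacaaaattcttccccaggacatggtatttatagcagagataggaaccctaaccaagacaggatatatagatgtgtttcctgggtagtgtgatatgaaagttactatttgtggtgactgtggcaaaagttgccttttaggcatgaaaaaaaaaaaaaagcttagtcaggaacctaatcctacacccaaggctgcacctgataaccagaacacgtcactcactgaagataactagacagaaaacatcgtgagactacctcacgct
In Isg15, 3 matches overlapped in 1 run that began 78 bases before the start. Ifit1 held 2 matches, beginning 104 and 85 bases before its start and read on the opposite strand. The windows of Ifit3 and Ifit3b were 99.2% identical over 260 aligned bases, and each held 2 matches, beginning 156 and 122 bases before the start of Ifit3 and 188 and 154 before that of Ifit3b. With the last base left out of the search, 58.3% of the member genes and 9.76% of all genes held a match. A match is a description of the letters and not evidence of binding, and no match in a window says nothing about elements elsewhere.

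The members spanned a wide range of levels in these cells. Levels between genes are compared in FPKM, which the authors scaled to gene length and sequencing depth. Ifitm3, which blocks the entry of enveloped viruses, stood highest at 1570 ± 274 FPKM in anti-Ang2 and 1718 ± 210 FPKM in IgG libraries (mean ± SD, n = 5 each). The membrane tether Bst2, which holds budding virus at the cell surface, followed with 204 ± 44.9 FPKM in anti-Ang2 and 196 ± 12.9 FPKM in IgG. Isg15, a ubiquitin-like protein that is attached to other proteins, had 60.5 ± 24.0 FPKM in anti-Ang2 and 65.6 ± 8.42 FPKM in IgG. It did not differ beyond its spread from the receptor chain Ifnar2, at 55.0 ± 7.70 FPKM in anti-Ang2 and 55.6 ± 3.999 FPKM in IgG. Ifi35 came next, with 34.3 ± 4.57 FPKM in anti-Ang2 and 38.02 ± 4.61 FPKM in IgG. At the low end, Mx1 had 0.0942 ± 0.0641 FPKM in anti-Ang2 and 0.0779 ± 0.110 FPKM in IgG, and Oas3 had 0.00975 ± 0.0187 FPKM in anti-Ang2 and 0.0422 ± 0.0562 FPKM in IgG. Oas3, a synthetase of the oligoadenylate signal that activates RNase L, had between 0 and 30 counts per library. Mx1, the nuclear GTPase against influenza virus, is defective in C57BL/6 mice.

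**Figure D1:**
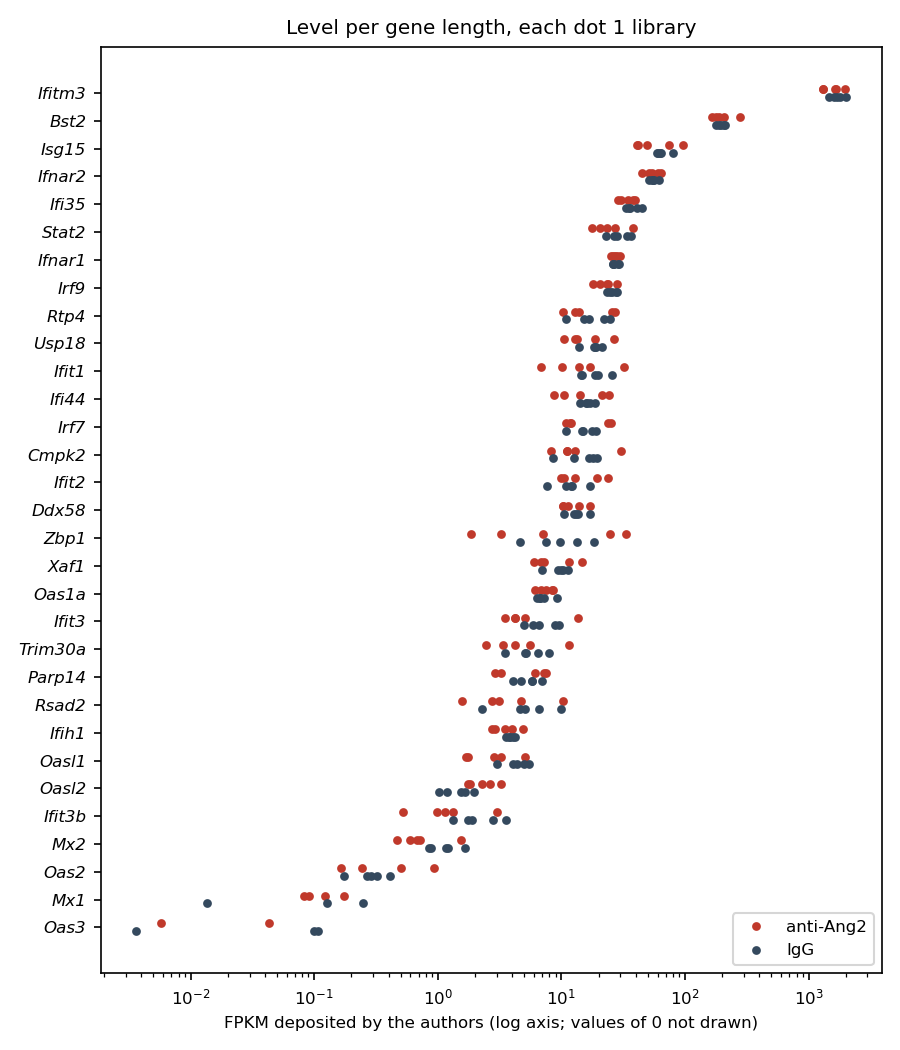
Level per gene length of the 31 members in every library, with FPKM on a log axis and each dot 1 library of anti-Ang2 (red, upper row of each gene) or IgG (dark, lower row). Ifitm3 and Bst2 lie above all other members, Mx1 and Oas3 lie lowest, and the anti-Ang2 and IgG dots of every gene overlap.

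After 12 h of anti-Ang2, 0 of the 30 tested members rose and 0 fell at an adjusted p under 0.05 by edgeR, where 1.34% of all 16240 tested genes were called higher and 2.8% lower (4.13% in either direction). At an unadjusted p under 0.05 by edgeR, 1 member was higher and 0 lower, against 9.14% and 9.1% of all genes. Limma-voom with quality weights called 0 members in either direction, where 670 of 16240 genes were called higher and 780 lower. DESeq2 called 1 of 29 members higher, Oasl2, and 0 lower, where 810 of 14826 genes were called higher and 880 lower. The authors' deposited table gave an adjusted p under 0.05 for 0 of the 31 members, against 4.25% of genes higher and 4.83% lower. The anti-Ang2 and IgG values overlapped in all 30 tested members, whereas they did not overlap in 6.1% of all genes (2.34% higher and 3.76% lower in anti-Ang2). The median log2 fold change, anti-Ang2 over IgG, was -0.07 over the members and 0.01 over all genes tested. A negative fold change was found for 22 of the 30 members (73.3%) and for 48.0% of all genes. That number varied with the processing, with 26 negative by limma-voom and without anti-Ang2 5, 24 with the replicate block and without anti-Ang2 2, and 15 without anti-Ang2 1. It was 10 with the macrophage marker sum as a covariate and 13 with the melanoma marker sum. For 20 of the 30 members the 95% interval of the fold change lay within 2-fold in either direction, and for 29 it included 0. In sorted bulk samples, fewer cells of a type and less RNA per cell cannot be told apart.

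**Figure D2:**
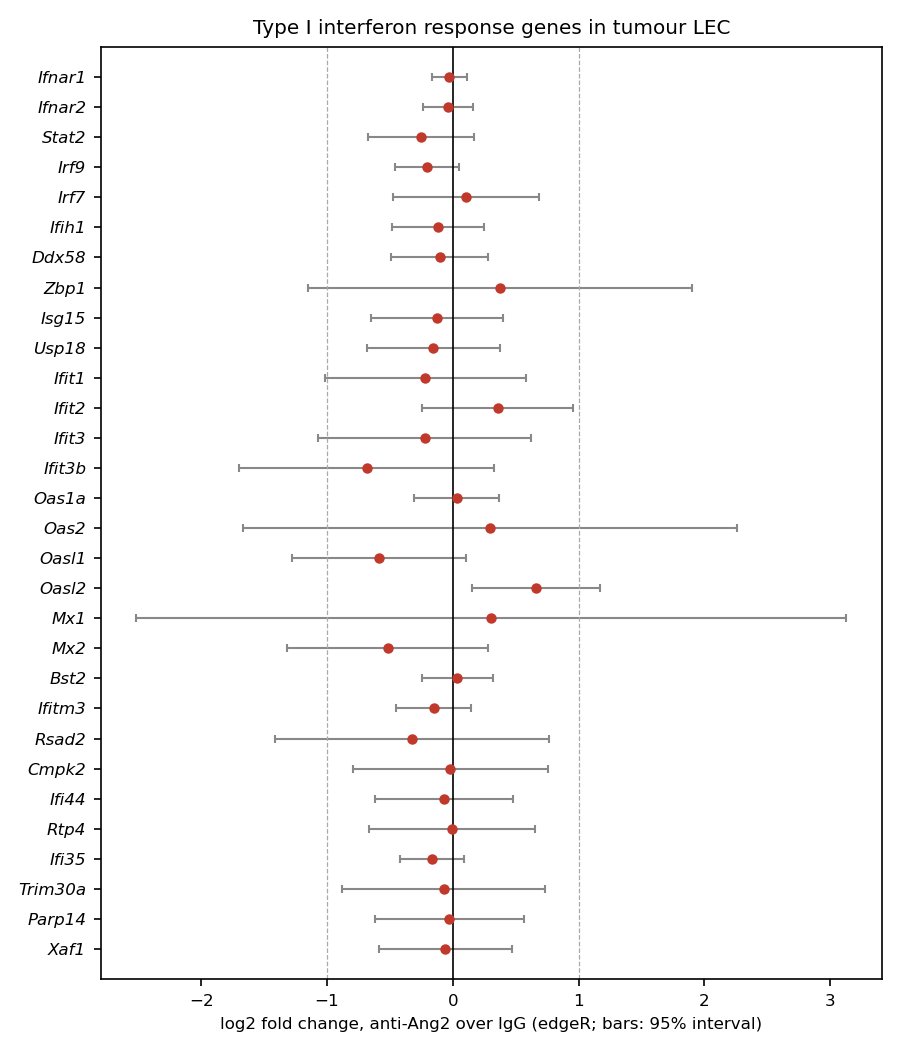
Log2 fold change of the 30 tested members, anti-Ang2 over IgG, by edgeR, with 95% intervals as bars and dashed lines at a 2-fold change. The interval of Oasl2 lies to the right of 0, from 0.15 to 1.17, and those of the other 29 members include 0.

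The receptor chains were the steadiest members. Ifnar1 was at 152, 152, 147, 162 and 155 CPM (counts scaled to library size) in anti-Ang2 libraries 1 to 5, against 145, 152, 169, 161 and 157 CPM in IgG libraries 1 to 5. Its log2 fold change was -0.03 ± 0.06 (SE), with a 95% interval of -0.17 to 0.11 (edgeR adjusted p = 0.882). Ifnar2 was at 142, 174, 174, 200 and 187 CPM in anti-Ang2 libraries, against 195, 178, 178, 177 and 172 CPM in IgG libraries. Its 95% interval was -0.23 to 0.16 on the log2 scale (edgeR adjusted p = 0.884). Both genes lie on the plus strand of chromosome 16 of mm10, Ifnar1 at 91485238 to 91507441 and Ifnar2 at 91372783 to 91405589.

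The transcription factors overlapped between the groups, with a wide spread among the anti-Ang2 mice. Stat2, the signal transducer of ISGF3, was at 73.8, 120.5, 86.5, 96.3 and 155 CPM in anti-Ang2 libraries, against 140, 114, 159, 117.5 and 103 CPM in IgG libraries. Libraries 1, 3 and 4 of anti-Ang2 lay below every IgG library and anti-Ang2 5 lay close to the highest. Irf9, the DNA-binding part of ISGF3, was at 92.7, 130.5, 106, 117 and 143 CPM in anti-Ang2 libraries, against 125, 124.5, 148, 132 and 150 CPM in IgG libraries. The fold change of Irf9 was -0.21 ± 0.12 on the log2 scale (SE, edgeR adjusted p = 0.393), with the same 3 anti-Ang2 libraries below all of IgG. Irf7, the factor that amplifies interferon production, was at 42.7, 92.0, 43.8, 38.1 and 89.2 CPM in anti-Ang2 libraries, against 53.7, 65.6, 54.6, 68.7 and 41.7 CPM in IgG libraries. Here anti-Ang2 2 and 5 lay above every IgG library, and the other anti-Ang2 libraries lay at or near the lowest of IgG. Stat2 (-0.25 ± 0.19, adjusted p = 0.560) and Irf7 (0.10 ± 0.26, adjusted p = 0.892) did not pass edgeR.

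Sensors of nucleic acid overlapped between the groups. Ddx58, which encodes the RNA sensor RIG-I, was at 75.9, 122, 70.3, 67.5 and 92.2 CPM in anti-Ang2 libraries, against 69.9, 90.2, 118, 91.4 and 90.7 CPM in IgG libraries. Anti-Ang2 2 was the highest of all 10 libraries and anti-Ang2 4 the lowest. Ifih1, which encodes the related sensor MDA5, ranged from 20.8 to 40.9 CPM in anti-Ang2 and from 28.7 to 33.8 CPM in IgG. Zbp1, the sensor of left-handed nucleic acid, was singled out after its values were seen, for the largest ratio of highest to lowest library within anti-Ang2. It was at 24.1, 88.4, 10.9, 6.08 and 109 CPM in anti-Ang2 libraries, against 32.3, 26.1, 63.4, 45.3 and 16.6 CPM in IgG libraries. Its interval, from -1.15 to 1.90 on the log2 scale, left changes beyond 2-fold in either direction undetected.

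The ubiquitin-like pathway was represented by Isg15 and by Usp18, the protease that removes ISG15 and restrains IFNAR2. Usp18 was at 28.1, 76.2, 35.8, 33.2 and 49.2 CPM in anti-Ang2 libraries, against 49.5, 50.5, 57.7, 50.4 and 39.4 CPM in IgG libraries. Isg15, whose promoter is printed above, was at 30.1, 73.6, 35.8, 28.9 and 52.7 CPM in anti-Ang2 libraries, against 44.9, 47.8, 59.3, 42.8 and 46.5 CPM in IgG libraries. In both genes anti-Ang2 2 exceeded every IgG library and anti-Ang2 1, 3 and 4 lay below every IgG library. The log2 fold changes were -0.15 ± 0.24 for Usp18 (edgeR adjusted p = 0.813) and -0.13 ± 0.24 for Isg15 (0.855).

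The IFIT genes, whose products bind viral RNA and stop its translation, lie together on the plus strand of chromosome 19, from the start of Ifit2 at 34550694 to the end of Ifit1 at 34650009 in mm10. Ifit2 was at 37.4, 96.2, 39.8, 47.4 and 71.3 CPM in anti-Ang2 libraries, against 45.6, 41.9, 65.5, 44.4 and 30.6 CPM in IgG libraries. Its fold change was 0.36 ± 0.27 on the log2 scale (SE, edgeR adjusted p = 0.560), opposite in sign to those of its neighbours. Ifit1, with the highest FPKM of the 4 genes, was at 17.3, 86.7, 35.5, 24.8 and 42.2 CPM in anti-Ang2 libraries, against 49.3, 37.6, 67.0, 47.2 and 39.2 CPM in IgG libraries. Anti-Ang2 2 was again the highest of all 10, and the change did not pass (log2 fold change -0.22 ± 0.36, edgeR adjusted p = 0.829). Ifit3 ranged from 5.66 to 24.2 CPM in anti-Ang2 and from 8.77 to 16.5 CPM in IgG. Ifit3b was at 1.87, 6.15, 2.57, 2.12 and 0.970 CPM in anti-Ang2 libraries, against 3.31, 3.71, 6.97, 5.36 and 2.69 CPM in IgG libraries. Anti-Ang2 2 was the exception among otherwise low values, and the change did not pass (log2 fold change -0.69 ± 0.46, edgeR adjusted p = 0.493). Reads of Ifit3 and Ifit3b are uncertain, because 51.2% of the windows of 50 bases in the longest Ifit3 transcript occur in Ifit3b.

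Among the oligoadenylate synthetases, all on chromosome 5, Oasl2 and Oasl1 pointed in opposite directions. Oasl2, an active synthetase in mice, was at 11.1, 21.3, 10.8, 15.6 and 13.6 CPM in anti-Ang2 libraries, against 9.34, 6.42, 7.44, 11.9 and 10.6 CPM in IgG libraries. It had the smallest p of all members (log2 fold change 0.66 ± 0.23, interval 0.15 to 1.17), but its edgeR adjusted p was 0.148. DESeq2 gave an adjusted p of 0.0482 and the other alternatives 0.103 to 0.452. The authors' deposited table gave an adjusted p of 0.0568. Oasl1, which lacks synthetase activity and restrains Irf7 translation in mice, was at 4.40, 13.4, 8.16, 4.12 and 6.89 CPM in anti-Ang2 libraries, against 9.95, 12.7, 14.1, 10.98 and 7.90 CPM in IgG libraries. Its log2 fold change was -0.59 ± 0.32 (edgeR adjusted p = 0.368), with 3 anti-Ang2 libraries below every IgG library. Oas1a was at 10.9, 16.6, 13.6, 12.0 and 14.8 CPM in anti-Ang2 libraries, against 16.5, 13.5, 12.3, 12.0 and 12.1 CPM in IgG libraries, and the groups overlapped throughout. Its counts are uncertain, since 57.6% of the windows of 50 bases in its longest transcript occur in Oas1g. Oas2 ranged from 0 to 3.88 CPM in anti-Ang2 and from 0.745 to 1.84 CPM in IgG.

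Of the restriction factors in membranes and the Mx GTPases, Ifitm3 was at 845, 1120, 1079, 823 and 1240 CPM in anti-Ang2 libraries, against 1028, 1346, 1130, 949 and 1224 CPM in IgG libraries. Its log2 fold change was -0.15 ± 0.13 (edgeR adjusted p = 0.629). Bst2 ranged from 143 to 236 CPM in anti-Ang2 and from 153 to 182.5 CPM in IgG. Mx2, annotated as a polymorphic pseudogene in GENCODE M21, was at 2.07, 5.70, 2.38, 1.58 and 2.42 CPM in anti-Ang2 libraries, against 4.11, 4.15, 5.86, 3.03 and 3.12 CPM in IgG libraries. As in Ifit3b, all anti-Ang2 libraries but anti-Ang2 2 lay below IgG, and the change did not pass (-0.52 ± 0.37, edgeR adjusted p = 0.517). Mx1 had at most 0.615 CPM in anti-Ang2 and 0.865 CPM in IgG.

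Rsad2, the radical SAM enzyme viperin, and Cmpk2, the nucleotide kinase that supplies it, are neighbours on chromosome 12, from 26442746 on the minus strand to 26479837 on the plus strand. Cmpk2 was at 34.0, 98.8, 34.3, 24.5 and 38.5 CPM in anti-Ang2 libraries, against 50.4, 39.3, 60.7, 55.0 and 27.9 CPM in IgG libraries. Anti-Ang2 2 stood alone, and the log2 fold change was -0.02 ± 0.35 (edgeR adjusted p = 0.985). Rsad2 ranged from 6.41 to 45.2 CPM in anti-Ang2 and from 10.05 to 42.2 CPM in IgG. The remaining 6 members had log2 fold changes of -0.17 to -0.01. Ifi44, a cytoplasmic protein with antiviral activity, was at 61.9, 133, 51.6, 80.7 and 140 CPM in anti-Ang2 libraries, against 99.2, 97.2, 95.8, 110 and 87.7 CPM in IgG libraries. Anti-Ang2 2 and 5 lay above all IgG libraries and the other anti-Ang2 libraries below all of them, so that the means of 93.5 ± 40.8 CPM in anti-Ang2 and 98.0 ± 8.05 CPM in IgG were close. The pro-apoptotic Xaf1 had the same order, with 55.2 and 64.4 CPM in anti-Ang2 2 and 5, 27.1 to 31.3 CPM in the other anti-Ang2 libraries and 32.9 to 51.7 CPM in IgG. Ifi35, which binds other interferon-induced proteins, was at 47.4, 66.9, 57.6, 49.2 and 63.4 CPM in anti-Ang2 libraries, against 66.8, 56.4, 75.3, 59.6 and 61.1 CPM in IgG libraries. Anti-Ang2 1 and 4 lay below every IgG library there, and the others lay within IgG. The chaperone Rtp4, the ubiquitin ligase Trim30a and the ADP-ribosyltransferase Parp14 overlapped between the groups as well.

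**Figure D3:**
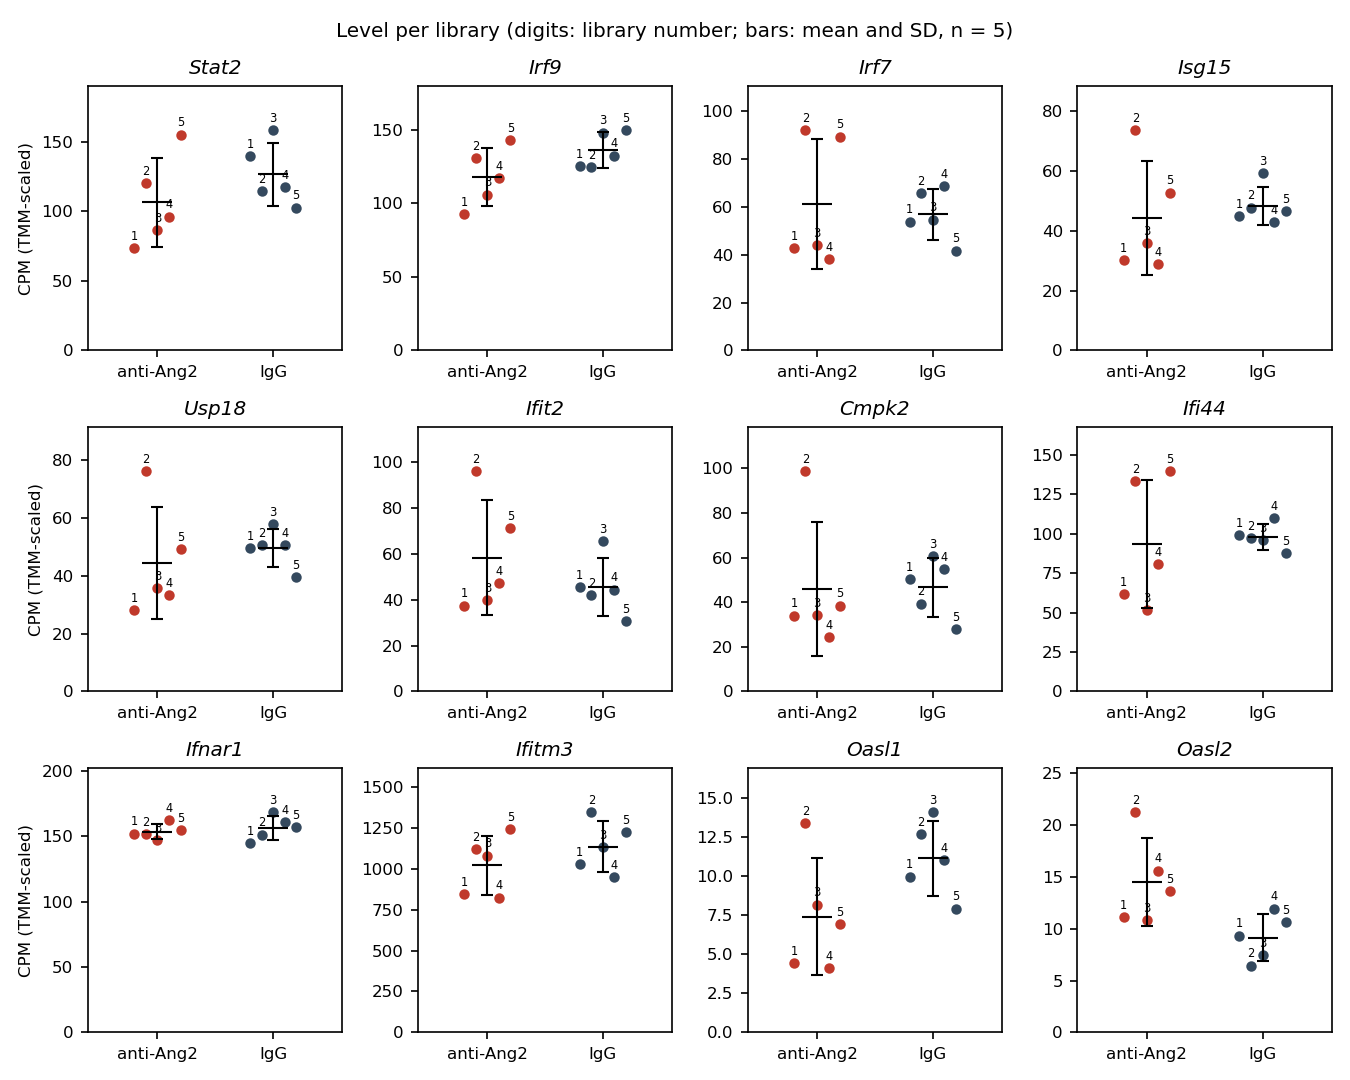
CPM of 12 members in each library, anti-Ang2 left and IgG right, with the library number above each dot and the mean and SD as bars (n = 5). In Irf7 and Ifi44 anti-Ang2 2 and 5 lie above the IgG libraries, in Isg15 and Usp18 anti-Ang2 1, 3 and 4 lie below them, and Ifnar1 is level between 145 and 169 CPM.

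Many members had a like pattern over libraries. Within anti-Ang2, 18 of the 30 tested members (60%) had their highest value in anti-Ang2 2 and 9 (30%) in anti-Ang2 5, where the shares over all genes were 19% and 27.4%. The lowest value fell in anti-Ang2 1 for 13 members (43.3%) and in anti-Ang2 4 for 11 (36.7%), against 17.3% and 19.6% of all genes. Within IgG, 17 members (56.7%) peaked in IgG 3 and 16 (53.3%) were lowest in IgG 5, against 18.4% and 19% of all genes. In 14 members anti-Ang2 2 was the highest of all 10 libraries. The 67 other interferon-stimulated genes described further on peaked within anti-Ang2 most often in anti-Ang2 5 (52.2%) and next in anti-Ang2 2 (35.8%). Within IgG, 44.8% of them peaked in IgG 3 and 46.3% were lowest in IgG 5. These counts describe genes that share libraries and are not independent of each other.

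The spread within anti-Ang2 was the wider one. Among the members the highest anti-Ang2 library exceeded the lowest by a median of 2.53-fold, against 1.66-fold in IgG, after 0.5 was added to each CPM. The same ratios over all genes were 1.62-fold in anti-Ang2 and 1.51-fold in IgG. The spread was wider in anti-Ang2 than in IgG for 28 of the 30 members (93.3%), for 83.6% of the other interferon-stimulated genes and for 60.5% of all genes. A range over 2-fold within anti-Ang2 was found for 20 members (66.7%) and for 32.5% of all genes. Within IgG it was found for 8 members (26.7%) and for 26.4% of all genes. Ifnar1, with 1.10-fold in anti-Ang2 and 1.16-fold in IgG, and Mx1, with 2.23-fold and 2.73-fold, were the exceptions. Members with the element in the promoter window had a median range of 2.31-fold in anti-Ang2 and 1.61-fold in IgG (12 tested genes), and those without it 2.35-fold and 1.56-fold (11 genes).

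**Figure D4:**
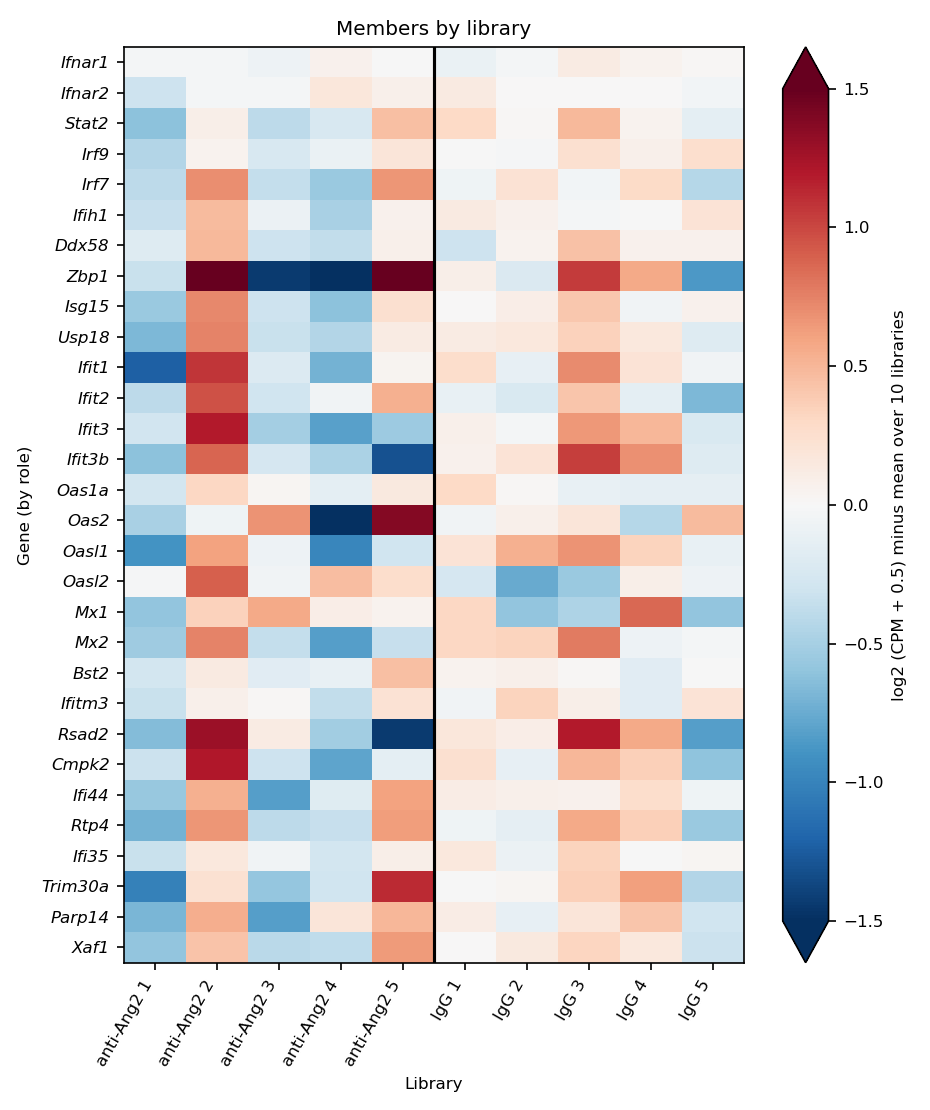
Level of the 30 tested members by library, as log2 (CPM + 0.5) minus the gene's mean over the 10 libraries, with anti-Ang2 left of the black line and IgG right of it. The column of anti-Ang2 2 is above the mean in 27 members and that of IgG 3 in 25, while anti-Ang2 1 is above it in 0 and anti-Ang2 3 and 4 in 5 each.

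Genes of the same response outside the members were taken from lists of receptor-proximal, sensor and other interferon-stimulated genes. Of 16 receptor-proximal genes 0 rose and 0 fell by edgeR, where 1.34% and 2.8% of all genes were called. At an unadjusted p under 0.05, 0 were higher and 1 lower, against 9.14% and 9.1% of all genes. Those of largest mean CPM, which is not scaled to gene length, were the feedback inhibitor Socs3, with 757 ± 137.5 CPM in anti-Ang2 and 618 ± 151 CPM in IgG (edgeR adjusted p = 0.421), the transcription factor Stat3, with 533 ± 67.0 and 573 ± 48.6 CPM (0.663), and the receptor kinase Jak1, with 472 ± 70.5 and 497 ± 65.8 CPM (0.812). Of 16 tested sensor and adaptor genes 0 rose and 0 fell by edgeR. At an unadjusted p under 0.05, 2 were higher and 1 lower, against the same 9.14% and 9.1% of all genes. Among them Tmem173, which encodes the DNA-signalling adaptor STING, had 284 ± 35.3 CPM in anti-Ang2 and 248 ± 25.4 CPM in IgG (edgeR adjusted p = 0.367). The factor Irf3 had 102 ± 4.48 CPM in anti-Ang2 and 98.4 ± 10.7 CPM in IgG, and its kinase Tbk1 had 68.7 ± 4.05 and 68.1 ± 6.46 CPM. Of 20 interferon genes looked for, the 1 found, Ifnz, held 25 counts over all libraries and was not tested.

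Of 67 other interferon-stimulated genes 0 rose and 3 fell after anti-Ang2, where 2.8% of all genes were called lower. This list was chosen with earlier results of these data known, so its count beside that share is a description only. Slfn2, a schlafen protein known to keep T cells quiescent, was at 43.1, 76.2, 43.8, 40.3 and 45.0 CPM in anti-Ang2 libraries, against 110, 160, 235, 167 and 124 CPM in IgG libraries. Every anti-Ang2 library lay below every IgG library (log2 fold change -1.68 ± 0.23, edgeR adjusted p = 0.0023). Ly6e, a surface protein anchored by a lipid and induced by interferon, was at 634, 630, 483, 636 and 777 CPM in anti-Ang2 libraries, against 880, 1156, 1267, 976 and 1154 CPM in IgG libraries. Its groups did not overlap either (-0.78 ± 0.13, edgeR adjusted p = 0.00728). Shisa5, a protein of the endoplasmic reticulum, was at 444, 589, 468, 398 and 429 CPM in anti-Ang2 libraries, against 569, 662, 734, 628 and 660 CPM in IgG libraries. Anti-Ang2 2 lay above the lowest IgG library (-0.48 ± 0.11, edgeR adjusted p = 0.0341). Slfn2 passed in all 18 alternatives, with adjusted p = 0.0474 when the macrophage marker sum was added to the edgeR fit and 0.0485 when the melanoma sum was. Ly6e missed the threshold in the edgeR fit that held the macrophage sum (-0.54 ± 0.12, adjusted p = 0.0867), and in the one that held the melanoma sum (-0.61 ± 0.17, 0.142). Shisa5 kept its call in 6 of 18 alternatives. It lost it without any 1 library except IgG 1 or anti-Ang2 2 (adjusted p 0.0586 to 0.0994). The count of lower genes on this list was 7 without anti-Ang2 2 and 5 without anti-Ang2 5, and 1 with either marker sum. Over all genes, 373 of 16427 were lower without anti-Ang2 2 and 468 of 16802 without anti-Ang2 5. With the macrophage sum 99 of 16240 were lower, and with the melanoma sum 91.

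**Figure D5:**
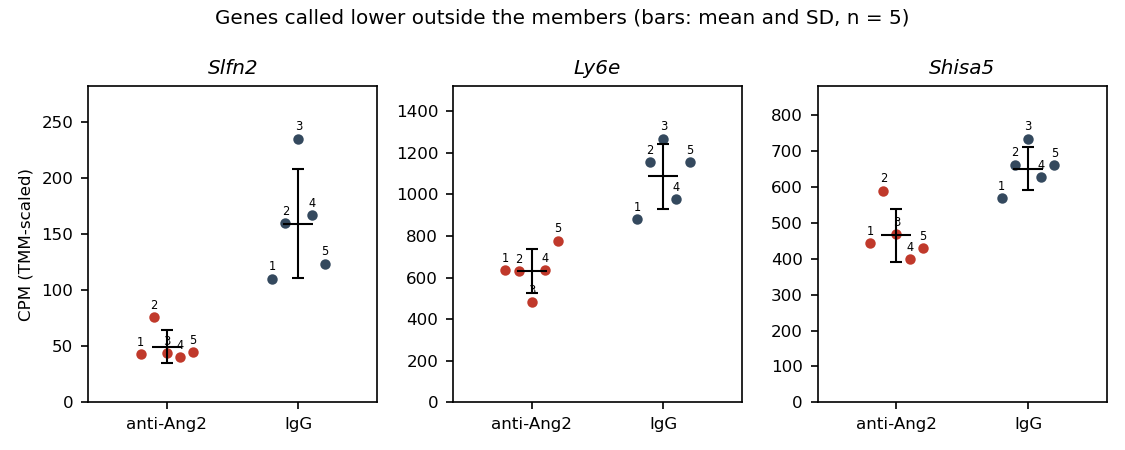
CPM of the 3 called genes of the other interferon-stimulated list in each library, anti-Ang2 left and IgG right, with the library number above each dot and the mean and SD as bars (n = 5). The groups are apart in Slfn2 and Ly6e, and anti-Ang2 2 of Shisa5, at 589 CPM, lies above IgG 1, at 569 CPM.

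Library totals ran from 38090933 to 83850341 counts. The summed CPM of 10 LEC markers was 15980 to 21180 in anti-Ang2 and 19280 to 22940 in IgG, with 10 of 10 found. The exact permutation test gave p = 0.111 for this sum, and 0.175 after adjustment over 11 lists. Tie1 and Ccl21a were called lower in anti-Ang2 by edgeR, as were 2.8% of all genes. Lyve1 and Reln had higher means in anti-Ang2, at 5646 and 921 CPM against 4655 and 684 CPM in IgG. The other LEC markers had lower means there, with Cdh5 nearly level at 321.5 CPM in anti-Ang2 and 322.6 CPM in IgG. Anti-Ang2 5 and 4 had the lowest quality weights (0.417 and 0.606, the others 0.911 to 1.43), and the members gave 0 calls without either or both. Macrophage and monocyte markers (15 of 15 found) summed to 234, 82.4, 273, 175 and 42.2 CPM in anti-Ang2 libraries, against 199, 30.1, 27.7, 28.4 and 23.9 CPM in IgG libraries (exact permutation test, p = 0.0952 and 0.175 after adjustment over 11 lists). In anti-Ang2, libraries 2 and 5 had the lowest sums. Of the members, 60% peaked in anti-Ang2 2 and 30% in anti-Ang2 5, against 19% and 27.4% of all genes. In IgG, libraries 2 to 5 had sums of 23.9 to 30.1 CPM. Among them, IgG 3 was the highest of the group in 17 of 30 members and IgG 5 the lowest in 16. IgG 1 had the highest sum, and it was highest in 2 members and lowest in 2. The members' median log2 fold change with this sum as a covariate was 0.05. The part of these cells in the members' pattern was not tested beyond that fit. Melanoma markers (12 of 12) summed to 5594, 3991, 4589, 1719 and 1135 CPM in anti-Ang2 libraries, against 443, 1757, 268, 1866 and 580 CPM in IgG libraries (exact permutation test, p = 0.0476 and 0.105 after adjustment). With that sum as a covariate the members' median was 0.03. Pericyte and smooth muscle markers summed to 323 ± 105 CPM in anti-Ang2 and 146 ± 62.7 CPM in IgG (exact permutation test, p = 0.0238). Cspg4 held the largest part, with means of 172 CPM in anti-Ang2 and 53.2 CPM in IgG. The means of Kcnj8, Abcc9 and Acta2 were also higher in anti-Ang2, and those of Rgs5, Pdgfrb, Myh11 and Des were lower. Blood endothelial markers summed to 3248 ± 1065 CPM in anti-Ang2 and 4930 ± 892 CPM in IgG (exact permutation test, p = 0.0397). Plvap held most of that sum, with means of 2216 CPM in anti-Ang2 and 4022 CPM in IgG. Cd34 and Vwf also had lower means in anti-Ang2. The means of the other blood endothelial markers were higher there, with Esm1 at 204 CPM in anti-Ang2 and 74.7 CPM in IgG. T and NK cell markers summed to 15.8 ± 3.91 CPM in anti-Ang2 and 24.5 ± 5.496 CPM in IgG (exact permutation test, p = 0.0397). Lck held most of it, with means of 13.6 CPM in anti-Ang2 and 19.8 CPM in IgG. Trac followed with 0.684 and 1.61 CPM, and only Klrb1c had a higher mean in anti-Ang2. After adjustment p was 0.105 for each of these 3 lists. Dendritic cell markers summed to 51.6 ± 8.40 CPM in anti-Ang2 and 97.6 ± 29.0 CPM in IgG without overlap (exact permutation test, p = 0.00794, the smallest it can give, and 0.0873 after adjustment). Without Zbtb46, which endothelium also expresses, they summed to 1.74 to 5.57 CPM in anti-Ang2 and 1.67 to 5.04 CPM in IgG.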

How the data were processed

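RNA of lymphatic endothelial cells from 10 mice was sequenced as SMART-Seq v4 cDNA with NEBNext libraries, per the labels' protocols; the kit does not mark strand. The submitters' processing notes name STAR, featureCounts, DESeq2 and mm10, and their versions and the strand and multi-mapping settings are not given in the sources used here. The authors deposited raw counts per gene, which entered every test, and FPKM, used only to compare levels between genes. The authors' deposited table also held log2 fold changes and p-values, of which adjusted p-values are quoted. The deposited score named TPM summed to over the total that defines TPM and was not used, nor was the deposited baseMean signal. Columns with values of single samples were all used or mapped, with 0 set aside as unmapped.

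Counts were tested with edgeR 4.0.16 in R 4.3.3 (quasi-likelihood F test, two-sided, TMM scaling, filterByExpr with minimum count 10 and minimum total 15, treatment as the only factor). Benjamini-Hochberg adjustment ran over all 16240 genes tested, with a threshold of 0.05. CPM are scaled by TMM. Intervals of 95% and SE come from the same fit. Alternatives used RLE size factors, no filter, DESeq2 1.42.0, limma 3.58.1 (voom with quality weights), a replicate block, libraries left out, and log2 marker sums as covariates. For marker sums, all 252 ways to split the libraries gave an exact permutation test, two-sided, whose smallest p is 0.00794. Promoter and transcript sequences were searched with Python 3.11.15 and promoters aligned with MAFFT 7.526. Member IDs matched GENCODE M21 of mm10 in 24 cases with the same version and in 7 with another version of the same ID. All 31 members are accounted for. Values in every library are given for called members, the receptor chains, the 3 transcription factors, the member of highest mean CPM in each role and the 5 members of smallest p; in the pathway lists, called genes or the 3 of largest mean CPM are named. CPM are not scaled to gene length. Ifit1 and Ifi35 were added for their FPKM, and values in every library are also given for Isg15 and, after they were seen, for Zbp1. The members and lists were chosen with earlier results of these data known. Each pair of libraries differed by more than counting error (chi-square over its degrees of freedom at least 55.1). The series design states independent biological replicates; reads carry no molecular identifiers.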

Additional observations from a re-analysis of the deposited data

Results flagged for a closer look

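In 60 groups of 5 values (30 members, each in anti-Ang2 and in IgG), 4 held a library far from the others. Chance gives about 1 in 20, or 3 of the 60, so the number is near that expected. Anti-Ang2 2 was such a library in 3 of the 4, and these 3 are not independent of each other because they share it. Ifit3 was at 24.2 CPM in anti-Ang2 2, with the other anti-Ang2 libraries at 5.66 to 8.38 CPM. Mx2 was at 5.70 CPM in anti-Ang2 2, with the others at 1.58 to 2.42 CPM. Cmpk2 was at 98.8 CPM in anti-Ang2 2, with the others at 24.5 to 38.5 CPM. The last was Ifnar2 at 195 CPM in IgG 1, with the other IgG libraries at 172 to 178 CPM. Without anti-Ang2 2 the log2 fold changes, anti-Ang2 over IgG, were -0.80 for Ifit3, -0.94 for Mx2 and -0.51 for Cmpk2, and 0 members were called.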

How the results depend on the processing

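Member counts were 0 higher and 0 lower in every alternative except DESeq2, which called 1 higher (Oasl2). Mice of the same replicate number did not deviate together (correlations of deviations -0.125 to 0.113); with the replicate block 82 genes were higher and 268 lower in all, 0 of them members. Over all genes, 217 higher and 454 lower became 810 and 880 with DESeq2, 670 and 780 with limma-voom, 25 and 99 with the macrophage sum, 24 and 91 with the melanoma sum and, higher only, 531 without anti-Ang2 4 and 5. Leaving out 1 library gave 82 to 326 higher and 259 to 468 lower, and 2 to 7 lower on the other interferon-stimulated list. That list's 3 lower genes became 7 with DESeq2, 8 with limma-voom, 6 without anti-Ang2 4 and 5, and 1 with either sum. Without anti-Ang2 4 and 5, 598 of 17121 genes were lower in all.

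Fold changes of members changed sign in 77 of 539 comparisons, in 23 of 30 members, none called on either side. On the log2 scale, with the macrophage sum they were Oas1a 0, Ifitm3 0.01, Ifit1 0.02, Ifnar1 0.03, Ifit3 0.04, Usp18 0.05, Cmpk2 0.13, Isg15 0.15, Ifi44 0.20, Parp14 0.21, Ddx58 0.22, Xaf1 0.23, Rtp4 0.32 and Trim30a 0.32. With the melanoma sum they were Mx1 -0.34, Ifi35 0.02, Ifnar1 0.02, Isg15 0.03, Ifnar2 0.08, Ifi44 0.11, Stat2 0.13, Xaf1 0.16, Parp14 0.19, Trim30a 0.23 and Rtp4 0.25. The replicate block gave Zbp1 -0.30 and Oas2 -0.49, limma-voom Bst2 -0.07, Irf7 -0.09, Zbp1 -0.46 and Oas2 -0.85, DESeq2 Rtp4 0.00, and the fit without anti-Ang2 4 and 5 Bst2 -0.10, Rsad2 0.08, Ifit3 0.10 and Cmpk2 0.24. Without 1 library the ranges were -0.09 to 0.10 for Bst2, -0.51 to 0.14 for Cmpk2, -0.27 to 0.00 for Ddx58, -0.26 to 0.09 for Ifi44, -0.09 to 0.03 for Ifnar2, -0.09 to 0.24 for Irf7, -0.04 to 1.46 for Mx1, -0.05 to 0.12 for Oas1a, -0.36 to 0.62 for Oas2, -0.19 to 0.13 for Parp14, -0.20 to 0.14 for Rtp4, -0.52 to 0.11 for Trim30a, -0.27 to 0.06 for Xaf1 and -0.18 to 0.67 for Zbp1. Differences of summed marker CPM, anti-Ang2 minus IgG, ranged without 1 library from 1876 to 2990 for melanoma, -2141 to -1495 for blood endothelium, -10.5 to -7.49 for T and NK, -1.40 to 1.15 for B cell and -100.1 to 99.1 for fibroblast markers. The causes were not tested. The median biological coefficient of variation was 0.288 over the members and 0.243 over all genes tested.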

Other observations

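Of the 67 tested genes of the other interferon-stimulated list, 1 was higher and 12 lower at an unadjusted p under 0.05 by edgeR, against 9.14% and 9.1% of all genes, and 3 of the lower ones passed the adjustment. The list was chosen with earlier results of these data known. Among the lower genes that did not pass were other schlafen genes, singled out after their values were seen. Slfn5 averaged 71.7 ± 38.6 CPM in anti-Ang2 and 145 ± 28.1 CPM in IgG (SD, n = 5 each; edgeR adjusted p = 0.0824), and Slfn9 10.3 ± 6.57 and 22.4 ± 9.59 CPM (0.153). In both, anti-Ang2 2, at 138 CPM for Slfn5 and 22.0 CPM for Slfn9, lay within the range of IgG. The cytidine deaminase Apobec3, which restricts retroviruses, averaged 140 ± 29.3 CPM in anti-Ang2 and 191 ± 15.5 CPM in IgG (0.0791).

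Of the 5 tested genes of the DNA-sensing PYHIN family on these lists, also singled out after their values were seen, 4 had a positive log2 fold change and 0 passed by edgeR. Aim2, a sensor of cytosolic DNA, averaged 1.95 ± 0.979 CPM in anti-Ang2 and 0.421 ± 0.262 CPM in IgG (edgeR adjusted p = 0.0895), with every anti-Ang2 library above every IgG library. Ifi204 averaged 14.6 ± 2.47 CPM in anti-Ang2 and 8.74 ± 2.999 CPM in IgG (0.105), and Ifi203 5.93 ± 2.58 and 2.89 ± 1.08 CPM (0.170). Mndal averaged 7.198 ± 3.785 CPM in anti-Ang2 and 5.31 ± 2.49 CPM in IgG (0.703). Ifi205 pointed the other way, with 0.285 ± 0.222 CPM in anti-Ang2 and 0.433 ± 0.152 CPM in IgG (0.683). Macrophage and monocyte markers summed to 161 ± 97.8 CPM in anti-Ang2 and 61.8 ± 76.7 CPM in IgG. By library, the sums were 234, 82.4, 273, 175 and 42.2 CPM in anti-Ang2 1 to 5. Aim2 was at 3.46, 1.39, 1.65, 0.934 and 2.32 CPM in these libraries. Ifi204 was at 17.1, 15.2, 11.58, 12.45 and 16.59 CPM, and Ifi203 at 6.293, 2.495, 4.225, 7.929 and 8.729 CPM. In IgG 1, with the highest sum of IgG at 199 CPM, Aim2 was at 0.341, Ifi204 at 10.85 and Ifi203 at 4.185 CPM. The part of macrophages in these values was not tested.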
